A study of Mus musculus with 11 samples.

Results

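The genes Taar2, Taar3, Taar4, Taar5, Taar8a, Taar8b, Taar8c and Taar9 encode trace amine-associated receptors (TAARs) and are mostly used in the dorsal zone of the main olfactory epithelium (MOE). They were chosen by symbol, and all 8 were found among the 24421 rows of the deposited count table. The other 6 olfactory Taar genes, Taar6 and the intact Taar7 genes, of which some are also mainly dorsal, are given only as a reference. RNA-seq was performed on the whole MOE of C57BL/6 mice labelled P1-P2, with polyA selection and a directional library kit. Wild type mice (n = 3 libraries) had 2 intact copies of the cluster from Taar2 to Taar9, heterozygous mice (n = 4) had 1 and homozygous mice (n = 4) had 0. The same deletion also removes TAAR enhancer 2, which lies inside the cluster, and leaves TAAR enhancer 1, so that both mutant genotypes lose an enhancer together with the genes. The exact ends of the deletion are not given in the sources used here. For this knockout line the study's reporting part gives a later age and a mixed background, and which applies was not settled. The labels give neither sex nor litter, and nothing says whether libraries came from separate animals, so that p-values measure only the spread between these libraries.

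TAARs are G protein-coupled receptors related to the receptors for biogenic amines, and most of the olfactory ones detect volatile amines. An olfactory sensory neuron (OSN) expresses a single receptor gene from a single allele, and its receptor couples through the olfactory G protein (Gnal) and adenylyl cyclase (Adcy3) to the cyclic nucleotide-gated channel (Cnga2). Neurons with a given TAAR are rare in the tissue, so that their receptor transcripts are diluted among those of all other cells.

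The genes lie on the ends of the cluster on chromosome 10 (mm10, the build of the deposited counts; positions from the GENCODE annotation of the same build). Taar2 (chr10:23938572-23941583), Taar3 (chr10:23949558-23950589), Taar4 (chr10:23960494-23961537) and Taar5 (chr10:23970706-23971719) lie at its start on the plus strand. Taar8a (chr10:24076500-24077534, plus strand), Taar8b (chr10:24091260-24092294, minus strand), Taar8c (chr10:24100878-24101912, minus strand) and Taar9 (chr10:24108488-24109534, minus strand) lie at its other end. Taar6 and the Taar7 genes lie between these groups. The annotated models hold coding sequence only, of 1014 to 1047 bases, in 1 exon for all but Taar2, which has 2.

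The 3 Taar8 genes are near-identical copies, which matters for how far their counts can be told apart. Their coding sequences differ at 40 of 1035 positions. The stretch with the most differences, bases 964 to 1023 from the start codon, is shown 5′ to 3′ on the coding strand, with the 11 positions at which the 3 copies are not all alike in capitals.
Taar8a: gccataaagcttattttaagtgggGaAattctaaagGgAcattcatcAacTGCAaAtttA
Taar8b: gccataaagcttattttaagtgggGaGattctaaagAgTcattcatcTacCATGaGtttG
Taar8c: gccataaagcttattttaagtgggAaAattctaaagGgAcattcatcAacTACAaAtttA
These stretches lie at chr10:24077463-24077522 (Taar8a), chr10:24091272-24091331 (Taar8b) and chr10:24100890-24100949 (Taar8c). Over the whole coding sequence the identity was 98.1% between Taar8a and Taar8c, 97.5% between Taar8b and Taar8c and 96.6% between Taar8a and Taar8b. Of the 51-base stretches of Taar8a, Taar8b and Taar8c, 49.5%, 44.3% and 27.9% occurred in no other Taar gene. For each of the other 5 genes 100% did, with an identity to the closest olfactory Taar gene of 58.2% (Taar5) to 69.04% (Taar9).

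Taar5, Taar2 and Taar9 recur in the results, the first as the most counted of the 8 genes and the others as the outer genes of the cluster. The first 60 coding bases of each are shown 5′ to 3′. Capitals mark exon 1 in Taar2 and the start codon in Taar5 and Taar9.
Taar2: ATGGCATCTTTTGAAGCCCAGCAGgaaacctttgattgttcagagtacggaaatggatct
Taar5: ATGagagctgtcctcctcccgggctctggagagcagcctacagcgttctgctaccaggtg
Taar9: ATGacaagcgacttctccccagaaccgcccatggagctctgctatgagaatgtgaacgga
In Taar2 the capitals cover chr10:23938572-23938595, followed after an intron of 1992 bases by chr10:23940588-23940623. The stretches of Taar5 and Taar9 lie at chr10:23970706-23970765 and chr10:24109475-24109534.

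Depth set how far each value could be read. The libraries held 9239866 to 14632525 counts, so that 1 count was worth 0.0680 to 0.109 CPM (reads of a gene per 1000000 counts of the library, after TMM scaling), and a count of 0 in a library allows up to 3 counts. Without molecular identifiers reads are not independent molecules, so that these floors and all counting intervals hold counting error alone. In homozygous replicate 2 the ribosomal RNA gene Rn45s took 25.8% of the counts. The first principal component (41.6% of the variance) separated the libraries into sets that cut across genotype. Replicates 1 and 2 of wild type, 3 and 4 of heterozygous and 1 and 2 of homozygous libraries formed set 1, and the other 5 libraries set 2. The tissue label was matched by its markers, with 5 of 5 mature OSN markers (summed level 1064 to 1923 CPM over the 11 libraries), 3 of 3 immature OSN markers (549 to 743 CPM), 5 of 5 basal cell markers (71.2 to 192 CPM) and 3 of 3 sustentacular markers (636 to 1282 CPM) detected. Of the 3 erythroid markers, Hba-a1 and Hbb-bs were listed at 0 in all libraries.

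**Figure D1:**
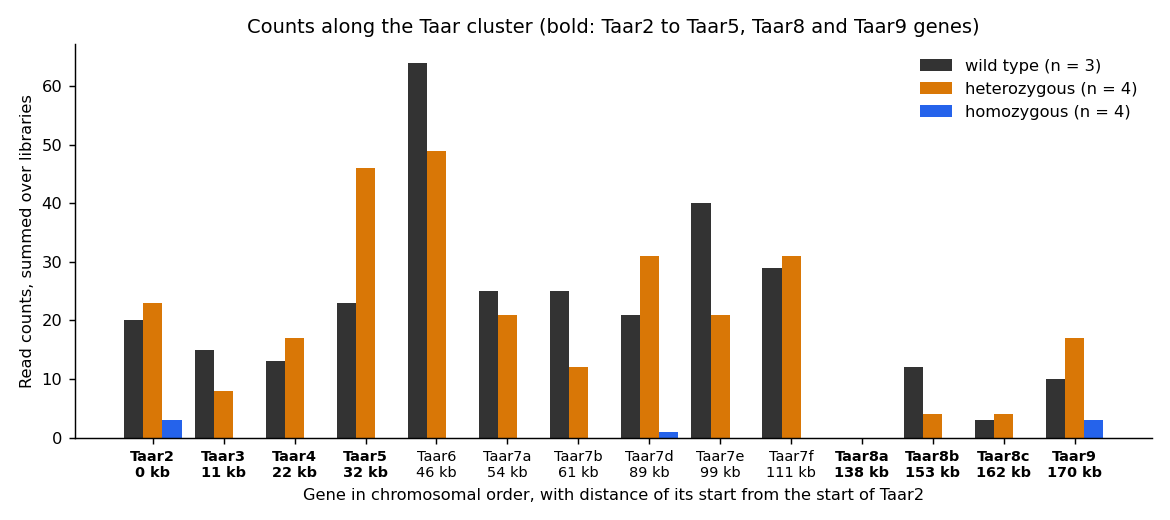
Read counts of the 14 olfactory Taar genes (vertical axis), summed over the libraries of each genotype, in chromosomal order with the distance of each gene start from that of Taar2. The 8 genes described here, in bold, lie at both ends of the cluster, and the only ones with homozygous counts were Taar2 and Taar9, with 3 each.

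In wild type MOE, 7 of the 8 genes were detected, and all were transcribed at a low level in the bulk tissue. Together they had 30, 31 and 35 counts in replicates 1 to 3 of wild type, or 2.78, 2.49 and 2.83 CPM. The sum thus lay close in the 3 libraries, with a mean of 2.70 ± 0.185 CPM (SD, n = 3), whereas the genes within it did not keep their order. Per length, Taar5 had the highest mean, with 0.625 ± 0.424 CPM per kilobase of coding length (SD, n = 3), followed by Taar2 with 0.566 ± 0.307 and Taar3 with 0.413 ± 0.293. Taar4 came next with 0.338 ± 0.230 CPM per kilobase, then Taar8b with 0.323 ± 0.127, Taar9 with 0.272 ± 0.104 and Taar8c with 0.0857 ± 0.0898. Taar8a stood last, listed at 0. The full coding length was used also for the Taar8 genes, of which only part is unique. Their levels may therefore be too low where reads matched several copies. The ranges of the 3 libraries overlapped between all neighbours in this order, so that the data rank no gene above the next one. In bulk tissue, fewer neurons that use a gene and less RNA per neuron cannot be told apart.

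**Figure D2:**
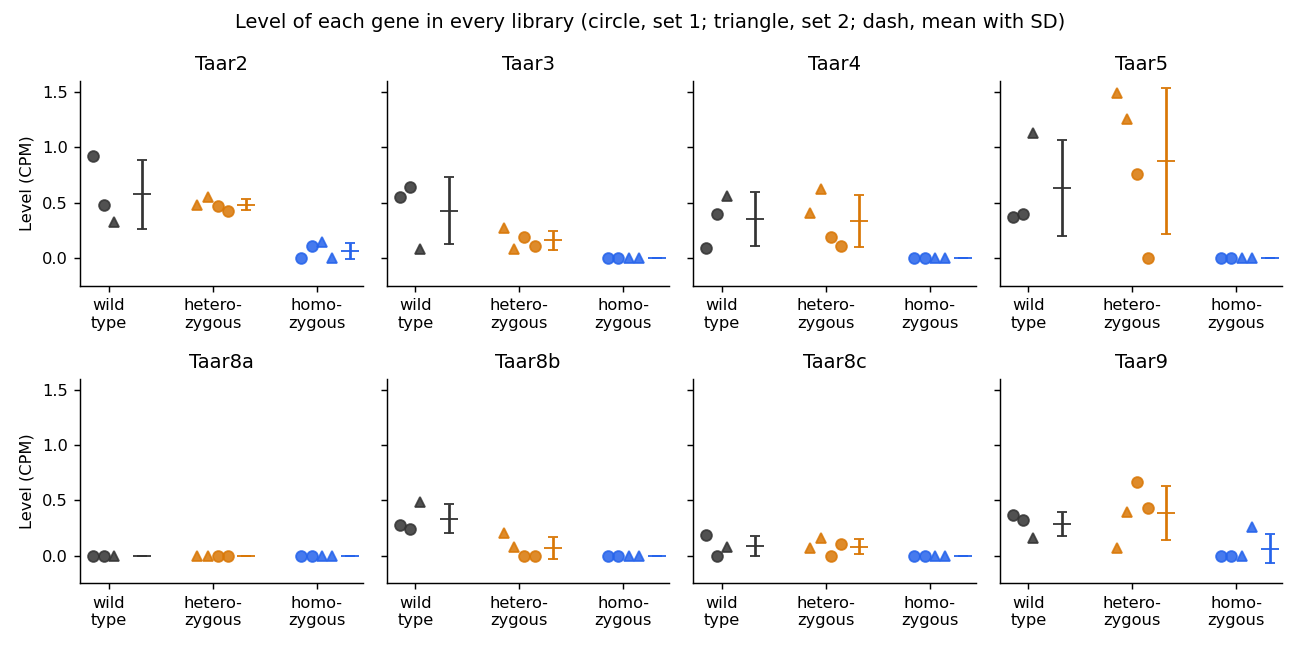
Level in CPM (vertical axis) of each of the 8 genes in every wild type (n = 3), heterozygous (n = 4) and homozygous (n = 4) library, with circles for set 1, triangles for set 2 and a dash for the mean with its SD. Homozygous libraries lie at 0 for all genes but Taar2 and Taar9, and wild type and heterozygous points overlap for all detected genes but Taar8b.

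The homozygous libraries addressed whether any transcript of these genes was left when no copy of the cluster was intact. Summed over the 8 genes, the counts were 0, 1, 2 and 3 in homozygous replicates 1 to 4, or 6 in all, against 96 over the 3 wild type and 119 over the 4 heterozygous libraries. All 4 homozygous libraries lay below every other library. From the pooled counts the homozygous level was 20.8-fold lower than wild type (95% exact counting interval 9.21 to 58.0) and 19.4-fold lower than heterozygous (8.65 to 53.9). No p-value is given for the sum, since the genes were chosen together. The 5 skeletal muscle markers, which mark another tissue, summed to 86.6, 285 and 518 CPM in homozygous replicates 1 to 3 and to 13.3 CPM in replicate 4, against 5.10 to 31.9 CPM in wild type libraries. Their part in the result was not tested.

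Taar5, the receptor for trimethylamine, had 4, 5 and 14 counts in the wild type libraries, 22, 16, 8 and 0 in the heterozygous ones (replicates 1 to 4) and 0 in each homozygous library. Every wild type library had more counts than the homozygous ones, whereas heterozygous replicate 4 also had 0. Against the floor of 3 counts over the 4 homozygous libraries, its level was lower than in wild type by at least 9.96-fold and lower than in heterozygous libraries by at least 14.995-fold. These bounds, here and below, take the wild type and heterozygous counts as exact and leave out their counting error. Wild type replicate 3 held 14 of the 23 wild type counts, and without it the bound against wild type was 5.97-fold. Without heterozygous replicate 1 or 2, or with homozygous libraries and either other genotype alone, 0 of the 8 genes passed the expression filter. With all libraries Taar5 alone passed it, through the libraries with an intact copy. In edgeR's quasi-likelihood test homozygous libraries gave an unadjusted p-value of 0.00553 against wild type (adjusted 0.996) and of 0.00213 against heterozygous ones (adjusted 1).

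Taar3 and Taar4 were listed at 0 in every homozygous library. Taar3, a receptor for isoamylamine, had 6, 8 and 1 counts in the wild type libraries and 4, 1, 2 and 1 in the heterozygous ones. Taar4, the receptor for beta-phenylethylamine, a compound enriched in carnivore urine, had 1, 5 and 7 counts in wild type and 6, 8, 2 and 1 in heterozygous libraries. For both genes every library with an intact copy had at least 1 count, and no homozygous library had any. With wild type counts taken as exact, homozygous libraries were lower than wild type by at least 6.49-fold for Taar3 and at least 5.63-fold for Taar4. With heterozygous counts taken as exact, the bounds against heterozygous libraries were 2.61-fold and 5.54-fold.

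Taar2 and Taar9, the outer genes of the cluster, held all 6 of these homozygous counts. Taar2 had 10, 6 and 4 counts in the wild type libraries, 7, 7, 5 and 4 in the heterozygous ones and 0, 1, 2 and 0 in the homozygous ones. Its homozygous level lay below all other libraries and was 8.66-fold lower than wild type (95% exact counting interval 2.57 to 45.5) and 7.498-fold lower than heterozygous (2.27 to 39.0). Taar9 had 4, 4 and 2 counts in wild type, 1, 5, 7 and 4 in heterozygous and 0, 0, 0 and 3 in homozygous libraries. Homozygous replicate 4 (0.258 CPM) thus lay within the wild type range of 0.161 to 0.371 CPM, while the other 3 homozygous libraries had no count. The pooled level of Taar9 was 4.33-fold lower than wild type (interval 1.11 to 24.5) and 5.54-fold lower than heterozygous (1.603 to 29.5). In edgeR's fit with no filter the log2 fold change of Taar9 against wild type was -1.98, and it was -4.79 without homozygous replicate 4. That of Taar2 was -2.97, and -3.81 without homozygous replicate 3, which held 2 of its 3 counts. Without single libraries its pooled fold ran from 6.21 to 18.3 against wild type and from 5.57 to 15.9 against heterozygous. Both were highest without homozygous replicate 3. Over the whole cluster the homozygous libraries held 7 Taar counts, of which the last fell on Taar7d.

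The Taar8 genes had the fewest counts. Taar8b had 3, 3 and 6 counts in wild type, 3, 1, 0 and 0 in heterozygous and 0 in each homozygous library. With wild type counts taken as exact, homozygous libraries were lower than wild type by at least 5.196-fold. Against heterozygous libraries the bound of 1.30-fold rests on 4 counts, and without heterozygous replicate 1 or 2 no more than 3 were left and there was no bound. Without homozygous replicate 1, 3 or 4 it fell below 1, to 0.969, 0.920 and 0.977. Taar8c had 2, 0 and 1 counts in wild type and 1, 2, 0 and 1 in heterozygous libraries. Its 3 wild type counts are at the floor, so that no fold against wild type is given. The bound of 1.30-fold against heterozygous libraries, also from 4 counts, was lost without heterozygous replicate 1, 2 or 4. Without homozygous replicate 1, 3 or 4 it fell below 1, to the same values as for Taar8b. Taar8a had 0 counts in all 11 libraries and was not detected. The part of depth and of reads shared with the other copies in this was not tested. Counts of the 3 copies are uncertain wherever a read matched several of them.

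Adjusted over the transcriptome, 0 of the 8 genes passed a p-value of 0.05 between homozygous and wild type libraries in edgeR's quasi-likelihood test, beside 0% of the 16574 genes that could be tested. Without adjustment the only one tested, Taar5, was lower in homozygous libraries, as were 1.21% of all genes. It had passed the filter through the libraries with an intact copy, where it was high. Between homozygous and heterozygous libraries 0 of the 8 passed, beside 0% of all genes, and Taar5 was again lower before adjustment, beside 0.241%. With no filter on low counts, 7 genes had a count and could be tested, and again 0 had an adjusted p-value under 0.05 in edgeR's test. Before adjustment, 5 of the 7 (Taar2, Taar3, Taar4, Taar5 and Taar8b) had a p-value under 0.05 and a lower homozygous level when set against wild type, beside 1.44% of all 21601 genes. Taar8c and Taar9 had unadjusted p-values of 0.0565 and 0.0848 in this edgeR fit. Same-numbered homozygous and wild type libraries deviated together, and the number was therefore entered as a block in a fit of these genotypes alone. Homozygous replicate 4 had no wild type library of its number, so that it added nothing to this comparison. It held all 3 homozygous counts of Taar9. In this fit Taar9 had a log2 fold change of -4.75 with an unadjusted edgeR p-value of 0.0315. Leaving that library out, without a block, gave -4.79. In that blocked fit with no filter 6 of the 7 genes, all but Taar8c, were lower before adjustment, beside 2.64% of 21220 genes. After adjustment 0 were called (lowest adjusted p = 0.380, Taar5), beside 0.212% of genes.

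When homozygous libraries were set against heterozygous ones with no filter, all 7 genes had an unadjusted edgeR p-value under 0.05 and a lower homozygous level, beside 0.509% of genes. Taar8b and Taar8c, at 0.0496 and 0.0495, lay at the threshold. They exceeded it with the replicate block (0.125 and 0.144), with a covariate for the library set (0.0647 and 0.0873) and in 9 of the 11 edgeR fits that left out a library. Taar9 exceeded it in 6 of these 11 edgeR fits (highest p-value 0.0894, without heterozygous replicate 3), whereas Taar2, Taar3, Taar4 and Taar5 kept an unadjusted p-value under 0.05 in all 11. With DESeq2, 0 of the 7 genes passed in homozygous against wild type or against heterozygous libraries (lowest adjusted p-values 0.277 and 0.167), beside 0.0371% and 0.00927% of the 21582 genes tested. Before adjustment 5 of the 7 were lower in each, beside 1.23% and 0.278% of genes.

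The order of the libraries gave the same 5 genes without a model. Of the 6 genes with at least 10 counts in all, 5 had every homozygous library below every wild type library (Taar2, Taar3, Taar4, Taar5 and Taar8b), beside 2.50% of the 19385 genes with that many counts. Taar9 was the exception, through homozygous replicate 4. Taar3, Taar4, Taar5 and Taar8b, without homozygous counts, reached 10 counts only through libraries with an intact copy. This choice of genes favours such an order. Every homozygous library lay below every heterozygous library for 3 of the 6 (Taar2, Taar3 and Taar4), beside 0.408% of genes.

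The heterozygous libraries addressed how the level of these genes depends on the number of intact copies. Their summed level was 2.99, 3.14, 2.27 and 1.18 CPM in heterozygous replicates 1 to 4, a mean of 2.40 ± 0.895 CPM (SD, n = 4) or 88.8% of wild type. Replicates 1 and 2 lay above all 3 wild type libraries and replicates 3 and 4 below them. The summed level of the 5 skeletal muscle markers was 939 CPM in heterozygous replicate 4 and 357 CPM in replicate 2, against 5.10 to 31.9 CPM in wild type libraries and 12.4 and 13.0 CPM in the other heterozygous ones. Their part in the result was not tested, and without heterozygous replicate 4 the heterozygous sum was 104% of wild type. Within set 1 it was 65.6% (2 libraries of each genotype) and within set 2 it was 108% (1 wild type and 2 heterozygous libraries). The mean thus fell on opposite sides of wild type in the sets, and the pooled difference lay within the spread of the heterozygous libraries.

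Per intact copy, the 8 genes summed to 1.35 ± 0.0923 CPM in the 3 wild type libraries and 2.40 ± 0.895 CPM in the 4 heterozygous ones (mean ± SD), or 178% of wild type. Per copy, heterozygous replicates 1 to 3 lay above every wild type library and replicate 4, at 1.18 CPM, below them. For the sum of the Taar6 and Taar7 genes the corresponding values were 2.87 ± 0.579 and 3.42 ± 0.893 CPM per intact copy, or 119% of wild type. This sum had the same order, with heterozygous replicates 1 to 3 at 3.54, 3.84 and 4.17 CPM per copy above the wild type range of 2.24 to 3.39, and replicate 4 at 2.14 below it. Neither sum was tested.

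**Figure D3:**
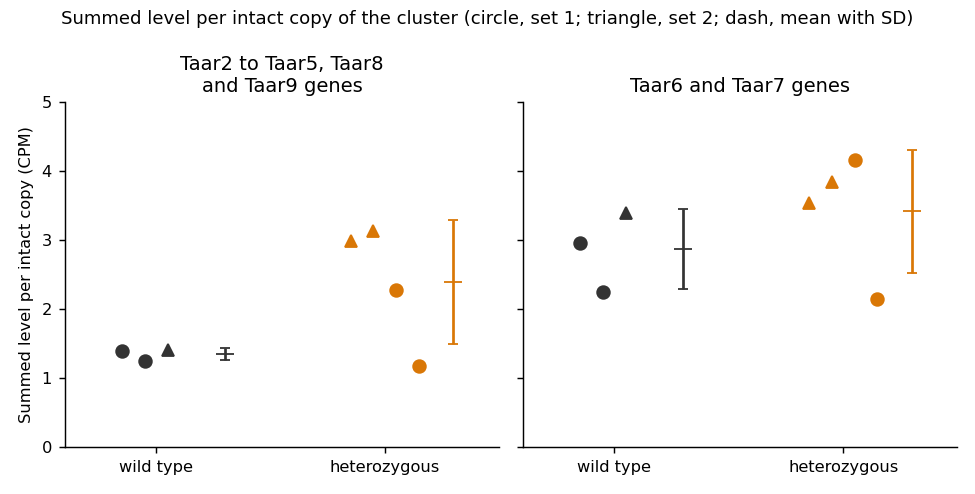
Summed level in CPM per intact copy of the cluster (vertical axis) of the 8 genes (left) and of the Taar6 and Taar7 genes (right) in wild type (n = 3) and heterozygous (n = 4) libraries, with circles for set 1, triangles for set 2 and a dash for the mean with its SD. On both sides 3 of 4 heterozygous libraries lie above every wild type library and replicate 4 lies below them.

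The heterozygous means of single genes lay on both sides of wild type, and 0 passed a test. The heterozygous mean was 138% of wild type for Taar5, 136% for Taar9, 94.4% for Taar4, 93.6% for Taar8c and 83.5% for Taar2. It was 37.96% for Taar3 and 21.1% for Taar8b. The value of Taar8c rests on 3 wild type counts, which are at the floor, and 4 heterozygous counts. Single libraries weighed on these values. The expression filter left Taar5 alone, whose log2 fold change was 0.51 (SE 0.83, 95% interval -1.38 to 2.39, unadjusted p = 0.558 and adjusted p = 1 in edgeR's quasi-likelihood test). Without wild type replicate 3 it was 1.22. Of the 8 genes 0 were called, beside 0% of all genes. With no filter, 0 of 7 were called in edgeR and 0 were lower before adjustment, beside 0.643% of all genes. DESeq2 also gave 0 of 7, beside 0.0139% of all genes after adjustment and 0.496% that were lower before it.

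The gene nearest to the threshold was Taar8b. Its log2 fold change was -1.92 (SE 0.88, 95% interval -3.88 to 0.037, unadjusted p = 0.0537 in the edgeR fit with no filter). Without heterozygous replicate 1, which held 3 of the 4 heterozygous counts, it was -3.07, and edgeR gave an unadjusted p-value of 0.0176. No heterozygous library exceeded any wild type library in CPM, since the highest heterozygous value was 0.204 CPM and the lowest wild type value 0.241 CPM. In raw counts, heterozygous replicate 1 had 3, as did wild type replicates 1 and 2. Taar8b was the 1 gene of 6 for which the order in CPM held, beside 1.20% of all genes with enough counts. It had enough counts through wild type, with 12 counts against 4 in heterozygous libraries. Taar3 followed with -1.30 (SE 0.76, interval -2.9995 to 0.40, unadjusted p = 0.119 in the same edgeR fit). In this fit the 95% interval of all 7 genes held both 0, the value at an equal level, and -1, the value when the level follows the number of intact copies. Under other settings a few of these edgeR intervals held only 1 of these values. With the replicate block that of Taar5 ran from -0.74 to 2.63, and without heterozygous replicate 4 from -0.42 to 2.16. Without heterozygous replicate 1 that of Taar9 ran from -0.96 to 2.53. For Taar8b it ran from -4.34 to -0.23 with a covariate for the library set and from -5.48 to -0.67 without heterozygous replicate 1, and for Taar3 from -3.29 to -0.28 without wild type replicate 3.

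**Figure D4:**
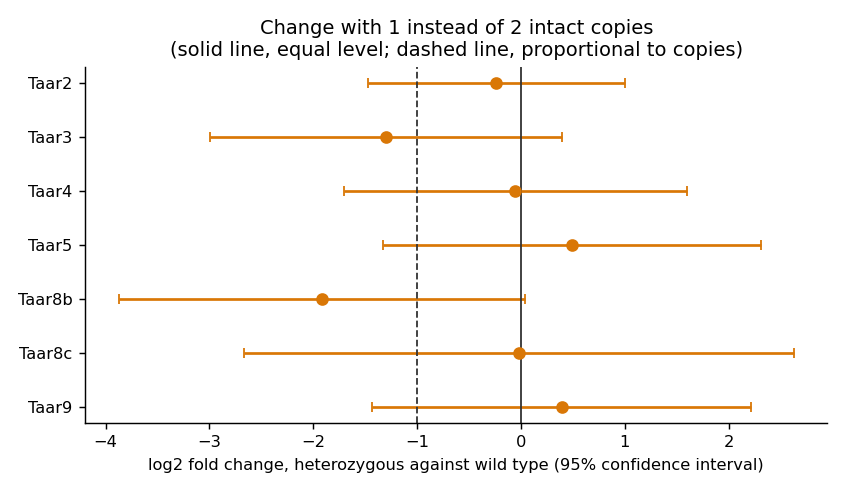
Log2 fold change of heterozygous against wild type libraries (horizontal axis) with its 95% confidence interval for the 7 genes with a count, from the edgeR fit with no filter. All 7 intervals cross both the solid line at 0 and the dashed line at -1.

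The share of each gene within the 14 olfactory Taar genes was compared next, as a ratio within each library. The 8 genes together took 31.9%, 35.6% and 29.4% of the Taar counts in wild type replicates 1 to 3. In heterozygous replicates 1 to 4 they took 45.8%, 44.9%, 35.3% and 35.5%. The lowest heterozygous share thus fell below the highest wild type share, and the 95% Wilson intervals of the libraries, which ran from 23.4% to 41.9% in wild type replicate 1 and from 36.2% to 55.8% in heterozygous replicate 1, overlapped. The mean share was 32.3% ± 3.13 in the 3 wild type and 40.4% ± 5.79 in the 4 heterozygous libraries (mean ± SD). The difference of 8.07 percentage points was 1.62 within set 1 and 16.0 within set 2, where wild type had 1 library.

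**Figure D5:**
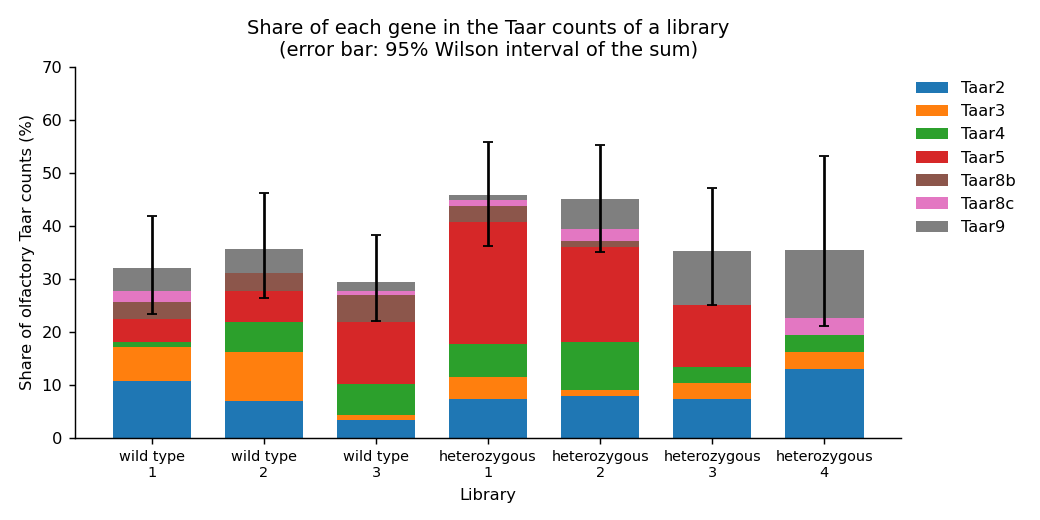
Share of the counts of the 14 olfactory Taar genes (vertical axis, percent) taken by each of the 7 genes with a count, stacked for each wild type and heterozygous library, with the 95% Wilson interval of the sum. Taar5 takes 0% to 22.9% of the Taar counts in heterozygous libraries, and the sum runs from 29.4% to 45.8% over the 7 libraries.

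Among single genes, Taar5 varied most. It took 4.26%, 5.75% and 11.8% of the Taar counts in the wild type libraries and 22.9%, 18.0%, 11.8% and 0% in the heterozygous ones. Pooled over libraries this was 7.67% (95% Wilson interval 5.16 to 11.2) of 300 wild type counts and 16.2% (12.4 to 20.9) of 284 heterozygous counts. The pooled intervals did not overlap, but the spread between heterozygous libraries was wider than either, and the exact permutation test over libraries (two-sided) gave a p-value of 0.4.

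The same test was run for the 6 genes with at least 10 counts in the 7 libraries, and 0 passed after Benjamini-Hochberg adjustment over the 6. With 3 against 4 libraries the smallest p-value it can give is 0.0571, which only Taar8b reached (exact permutation test, adjusted p = 0.343). Taar8b met the minimum of 10 counts through its 12 wild type counts, with 4 in heterozygous libraries. The share of Taar8b was 3.89% ± 1.003 in the 3 wild type and 1.06% ± 1.47 in the 4 heterozygous libraries (mean ± SD). The share of Taar9 was 3.51% ± 1.59 and 7.46% ± 5.24, and that of Taar3 5.47% ± 4.25 and 2.86% ± 1.27. Taar2 took 6.97% ± 3.64 and 8.85% ± 2.71, and Taar4 4.23% ± 2.74 and 5.35% ± 2.85. The exact permutation p-values of these 4 genes lay between 0.286 (Taar9) and 0.629 (Taar4).

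Part of the spread within genotypes followed the library sets. Among libraries with an intact copy, Taar5 had 14, 22 and 16 counts in the 3 libraries of set 2 and 4, 5, 8 and 0 in the 4 of set 1. Taar4 had 7, 6 and 8 counts in set 2 and 1, 5, 2 and 1 in set 1. In CPM the means were 1.29 (set 2) and 0.382 (set 1) for Taar5 and 0.534 and 0.198 for Taar4. For Taar4 the lowest value of set 2, 0.408 CPM, lay next to the highest of set 1, 0.401 CPM. Taar3 lay the other way by its mean, with 0.144 CPM in set 2 and 0.373 CPM in set 1, and its sets overlapped. The sets were drawn from the expression data, so that genes differ between them by construction and no test is given. The share of all genes whose sets lay apart was not counted. The 5 basal cell markers summed to 91.3 CPM on average in set 2 (71.2 to 102 CPM) and 169 CPM in set 1 (124 to 192 CPM), and these sets did not overlap. The mature OSN markers summed to 1279 CPM on average in set 2 and 1590 CPM in set 1, and the dorsal zone genes Nqo1 and Acsm4 to 185 and 195 CPM. The ventral zone gene Ncam2 had 32.1 and 40.4 CPM. Their part in the result was not tested.

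Of all genes past the expression filter, the 5 with the profile most like that of the summed genes over the 11 libraries were Taar7f, Taar6, Taar7e, Olfr1252 and Srd5a2. Likeness was the root-mean-square difference of log2(CPM + 0.1), each centred on its own mean, and was 0.553, 0.618, 0.764, 1.26 and 1.38. The first 3 lie in the same deletion, with 0 counts in the homozygous libraries. Olfr1252, an odorant receptor gene, and Srd5a2, which encodes a steroid reductase, kept counts in all 4 homozygous libraries, with 0.109 to 0.602 CPM and 0.327 to 1.46 CPM.

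The genes through which TAARs signal and reach the membrane were compared across the genotypes. The list held Gnal, Adcy3, the channel genes Cnga2, Cnga4 and Cngb1, the chloride channel Ano2, the receptor chaperones Rtp1 and Rtp2 and the mature OSN marker Omp. All 9 were tested, and 0 passed edgeR's test in any comparison, with 0 under 0.05 before adjustment. Between homozygous and wild type libraries the log2 fold changes of the 9 genes ran from -0.40 to -0.16, with a lowest edgeR adjusted p-value of 0.996. In heterozygous against wild type libraries they ran from -0.33 to -0.10. The summed level of the list in wild type was 1851 ± 515 CPM (SD, n = 3). It was 1640 ± 232 CPM (SD, n = 4) in heterozygous and 1504 ± 151 CPM (SD, n = 4) in homozygous libraries, both less than 1 SD of wild type away. The skeletal muscle markers were above the wild type range in 3 of the 4 homozygous and 2 of the 4 heterozygous libraries, as given above, and their part in these levels was not tested.

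Genes that mark the zones of the epithelium were compared in the same way. The dorsal zone genes Nqo1, a quinone reductase, and Acsm4 had 77.1 ± 23.4 and 130.1 ± 35.7 CPM in the 3 wild type libraries and 62.2 ± 10.8 and 107 ± 25.04 CPM in the 4 homozygous ones (mean ± SD). The ventral zone gene Ncam2, a cell adhesion molecule, had 40.3 ± 2.24 CPM in wild type and 33.8 ± 9.32 CPM in homozygous libraries. Of the 3 genes, 0 passed edgeR's test in any comparison, and before adjustment 0 were under 0.05. The muscle markers above apply here too, and their part was not tested. Taar1, the family member outside the deletion, had 0 counts in all 11 libraries.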

How the data were processed

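Total RNA of the whole MOE was sequenced in 11 libraries. The authors trimmed the reads (Trimmomatic, version 0.36), mapped them to mm10 (Hisat2, version 2.1.0) and counted reads with featureCounts (Subread, version 1.6.2), and the deposited values are raw counts for each gene. The annotation, use of strand and handling of reads that match several positions, which bears on the Taar8 genes, are not given in the sources used here. The deposited table of normalised counts was not used, and 0 columns belonged to no sample.

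Groups came from the genotype labels. Counts were tested with edgeR (version 4.0.16, in R 4.3.3) by quasi-likelihood F-tests. All libraries and the 3 genotypes entered a single fit, after TMM scaling and filterByExpr, with Benjamini-Hochberg adjustment over all genes tested, with a threshold of 0.05. Of 16574 genes that passed the filter, 1 was among the 8 genes, and the other 7 were taken from the same fit with no filter, in which Taar8a, without any count, was not tested. The steps were tested on simulated counts. CPM used TMM-scaled library totals. Folds against genes with 0 homozygous counts used a floor of 3 counts over the 4 homozygous libraries together. They took the counts of the other genotype as exact. Shares have 95% Wilson intervals per library and were compared with two-sided exact permutation tests (scipy, version 1.17.1). Alternatives were RLE scaling, DESeq2 (version 1.42.0), other filters, only the genotypes compared, the replicate number as a block, the library set as a covariate and leaving out each library. Same-numbered homozygous and wild type libraries deviated together (correlations 0.326, 0.415 and 0.396 for numbers 1 to 3), whereas heterozygous and wild type (-0.188, -0.379 and -0.228) and homozygous and heterozygous ones (-0.585 to -0.396) did not. The first pairing rests on these correlations, not on the labels, and numbers 1 to 3 fall in the same library set for these genotypes. A fit with the block in homozygous and wild type libraries alone, and pooled folds without single libraries, were added after the data were seen.

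All 8 genes, Taar1 and the 5 genes nearest in profile are named by rule. The 8 genes, the signalling, zone and cell type marker lists and the tests were chosen with earlier results of these data known. Coding sequences and gene positions came from GENCODE (release M21) and were compared with Biopython (version 1.88).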

Additional observations from a re-analysis of the deposited data

Results flagged for a closer look

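Of the 19 sets of 4 libraries in which the level or the Taar share of a gene or of the sum varied, 2 held a library that stood apart from the other 3 by more than Dixon's 95% critical value for the gap as a share of the range. For normally distributed values chance flags about 1 in 20 such sets, a rate that need not hold for sparse counts. Where 3 libraries have 0, the gap is the whole range and the set is flagged whatever the count. The first was Taar9 in homozygous replicate 4, with 0.258 CPM (3 counts), where the other homozygous libraries had 0. The second was the share of Taar2 in heterozygous replicate 4, with 12.9% of the Taar counts (4 counts) against 7.29% to 7.87% in the other heterozygous libraries. Both values rest on 3 or 4 counts.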

How the results depend on the processing

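In all 3 comparisons the 7 genes with a count stayed short of an adjusted p-value of 0.05 under each alternative in which they were tested. Taar8a was never tested, and Taar8c not with the filter on total counts. The log2 fold changes of these 7 in homozygous against the other genotypes kept a negative sign, but Taar9 moved from -1.98 to -4.79 against wild type and from -2.37 to -5.18 against heterozygous libraries without homozygous replicate 4, and Taar2 from -2.97 to -3.81 and from -2.73 to -3.58 without homozygous replicate 3. Taar8b moved from -3.12 to -1.92 against heterozygous libraries without heterozygous replicate 1. Against wild type, Taar8c moved from -3.18 to -2.28 without wild type replicate 1 and Taar5, with no filter, from -5.95 to -5.22 without wild type replicate 3. DESeq2 gave log2 fold changes nearer to 0 by more than a 1.5-fold change for Taar3, Taar4, Taar5, Taar8b and Taar8c in both homozygous comparisons, for example -4.39 for Taar8b against wild type, where edgeR gave -5.04. With the replicate block, 0 members were called in homozygous against wild type libraries and the block changed no other adjusted call. With the block in these 2 genotypes alone 0 of the 8 genes passed the filter, and the fit called 0.241% of 16163 genes. In heterozygous against wild type libraries Taar5 reached 1.22 without wild type replicate 3 and Taar8b -3.07 without heterozygous replicate 1, and 4 of the 7 log2 fold changes turned sign. With the block Taar4 was at 0.26 and Taar9 at -0.057. Leaving out 1 library gave -0.52 to 0.25 for Taar2 (positive without wild type replicate 1), -0.53 to 0.44 for Taar4 (positive without wild type replicate 2, at 0.031, wild type replicate 3, at 0.44, heterozygous replicate 3, at 0.12, or heterozygous replicate 4, at 0.20), -0.58 to 0.89 for Taar8c (positive without wild type replicate 1, at 0.89, heterozygous replicate 1, at 0.090, or heterozygous replicate 3, at 0.32) and -0.0076 to 0.78 for Taar9 (negative without heterozygous replicate 3). Taar8b had an unadjusted edgeR p-value of 0.0321 when the library set was a covariate and of 0.0176 without heterozygous replicate 1, and Taar3 one of 0.0248 without wild type replicate 3. The summed level in heterozygous libraries was 88.5% of wild type with raw library totals, 88.7% with RLE scaling and 94.8% per 1000 odorant receptor counts, and 79.6% to 104% without single libraries. The share difference was 9.90 percentage points with pooled counts and 9.97 without the Taar8 genes, 1.62 within set 1, 15.98 within set 2, and 6.25 to 9.77 without single libraries. Taar3's share was 1.80 points higher in heterozygous libraries within set 2. For Taar4 the difference of heterozygous from wild type was -0.39 points as a share of the 8 genes and -0.32 within set 1. It ran from -0.46 (without wild type replicate 1) to 1.95 without single libraries, at -0.092 without heterozygous replicate 2. The cause of these changes was not tested. At 0 to 22 counts per gene and library, depth limits every single-gene value.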
